A study of Mus musculus with 10 samples.

Results

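A set of 10 genes of the AP-1 and immediate early response was followed through adult, slice and *in vitro* microglia: the AP-1 subunits *Fos*, *Fosb*, *Jun*, *Junb* and *Jund*, the transcription factors *Egr1* and *Atf3*, the nuclear regulator *Ier2*, the phosphatase *Dusp1* and the kinase *Plk2*. They were chosen by name as genes of activation or dissociation stress, with earlier results of these data known. They are 10 of the 18292 gene symbols listed over the libraries. Single microglia were profiled from 5 groups of untreated C57BL/6 mice with 2 biological replicates each. The adult group came from brains of mice aged 10–15 weeks, which were minced and Dounce homogenized cold and spun through Percoll at room temperature. The slice 1 day, slice 1 week and slice 3 weeks groups came from coronal slices of neonatal pups of postnatal days 1–4 without cerebellum, kept on membrane inserts in medium with horse serum and PDGF, homogenized in the same way and pooled as required. The *in vitro* group was collected from the medium of mixed glial cultures of neonatal cortex at day 22, a suspension that needed no tissue homogenization. All cells were sorted by FACS as live, CD11b high and CD45 intermediate, and the slice and *in vitro* donors were neonates while the adult donors were not, so that donor age and culture cannot be told apart.

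AP-1 is a dimer of a Fos protein with a Jun protein, or of 2 Jun proteins, that binds DNA through a basic leucine zipper. Immediate early genes are transcribed within minutes of a stimulus without new protein synthesis, from factors such as SRF and CREB that are already bound or are phosphorylated by MAP kinases, and their RNAs are short lived. In microglia they are known to be induced by activating signals and by the isolation procedure itself, in particular by warm enzymatic digestion.

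The upstream sequences of 8 of the 10 genes were matched by symbol in the RefSeq table for GRCm38.p6, and 4 are shown as examples of windows with and without a cyclic AMP response element: *Dusp1* and *Plk2* hold the full element, *Fos* holds its core and *Jun* holds neither. Each is the 250 bases before the RefSeq start of transcription, 5′ to 3′ on the strand of the gene, with the element TGACGTCA or its core TGACG in capitals. *Fos* is on the plus strand at chr12:85473640-85473889, *Dusp1* on the minus strand at chr17:26508473-26508722, *Plk2* on the plus strand at chr13:110394794-110395043 and *Jun* on the minus strand at chr4:95052223-95052472.
Fos: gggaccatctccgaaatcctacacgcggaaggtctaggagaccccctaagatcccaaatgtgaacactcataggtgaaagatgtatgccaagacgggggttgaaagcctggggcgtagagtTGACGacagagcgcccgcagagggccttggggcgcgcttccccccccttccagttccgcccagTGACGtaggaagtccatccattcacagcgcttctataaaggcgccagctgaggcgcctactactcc
Dusp1: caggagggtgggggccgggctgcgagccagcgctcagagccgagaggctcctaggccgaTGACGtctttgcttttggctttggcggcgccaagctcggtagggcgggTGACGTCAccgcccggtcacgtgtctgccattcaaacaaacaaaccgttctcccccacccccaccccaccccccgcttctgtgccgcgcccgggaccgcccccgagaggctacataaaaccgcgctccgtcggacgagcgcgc
Plk2: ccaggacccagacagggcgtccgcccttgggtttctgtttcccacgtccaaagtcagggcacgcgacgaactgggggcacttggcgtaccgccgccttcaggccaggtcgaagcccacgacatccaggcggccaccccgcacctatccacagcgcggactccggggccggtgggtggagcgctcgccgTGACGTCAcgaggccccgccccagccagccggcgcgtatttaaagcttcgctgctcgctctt
Jun: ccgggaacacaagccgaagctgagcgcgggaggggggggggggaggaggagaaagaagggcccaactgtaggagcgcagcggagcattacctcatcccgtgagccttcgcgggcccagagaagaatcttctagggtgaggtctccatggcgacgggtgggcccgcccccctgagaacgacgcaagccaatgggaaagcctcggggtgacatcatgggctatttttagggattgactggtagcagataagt

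The full element TGACGTCA, which is its own reverse complement, was in 2 of the 8 windows, at −143 to −136 in *Dusp1* and at −62 to −55 in *Plk2*, counted from the base before the start as −1. It was in 508 of the 32851 windows of this length in the table (1.55%). Its core TGACG, searched on both strands and contained in every full element, was in *Fos* (from −129 and from −66), *Fosb* (from −60), *Junb* (from −106), *Dusp1* and *Plk2*, and, on the opposite strand, in *Atf3* (from −7), against 17.8% of all windows. It was not found in the windows of *Jun* and *Jund*. The core was in the window of *Junb*, whose mean level was highest in adult, as well as in those of genes with the highest mean at 1 day. The windows rest on the RefSeq starts, and for *Fosb* and *Jund* it is not known whether microglia use these. A further 2 motifs were in none of the 8 windows on either strand: the AP-1 site TGANTCA (6.75% of all windows) and the CArG box bound by SRF (1.47%). The *Jun* window holds the letters TGACATCA, which resemble the full element but match none of the patterns searched. Sites further upstream were not searched. These matches describe letters in 250 bases and not binding.

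The 10 libraries held 19059 cells after filtering, from 61 and 148 cells at 1 week to 3799 and 3527 cells in adult, and from 385373 to 39689540 UMIs per library. Microglia markers were read in every library, with all 8 of 8 detected, but their summed level was lower outside adult: 48332 and 47923 CPM in adult, 23504 to 28151 CPM at 3 weeks, and 7244 to 16683 CPM at 1 day, at 1 week and *in vitro*. Neutrophil markers stood at 7706 and 19177 CPM at 1 day and 30705 and 1030 CPM at 1 week, and at no more than 211 CPM elsewhere. Monocyte markers stood at 154 and 365 CPM at 1 day, with *Plac8* at 99.7 and 93.1 CPM and *Chil3* at 6.55 and 187 CPM, at 855 and 0 CPM at 1 week, and at no more than 7.18 CPM elsewhere. Border macrophage markers stood at 4508 and 4322 CPM *in vitro* and at 8.24 to 487 CPM in the other libraries. Erythrocyte markers stood at 1852 CPM in adult replicate 1 and 3463 CPM in slice 1 day replicate 1, and at no more than 1.02 CPM elsewhere. At most 23 cell barcodes were shared by any pair of libraries. Each gene below is given as UMIs scaled to 1000000 per library with TMM factors (CPM), in which 1 UMI stands for 1 molecule whatever the length of the transcript, so that genes can be compared.

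The 10 genes did not follow a single pattern over the groups. *Jun*, *Junb* and *Jund* had their highest mean in adult microglia, while *Fos*, *Ier2*, *Atf3*, *Dusp1* and *Plk2* had theirs in slices at 1 day and their lowest in adult. Of all UMIs of the 10 genes, the 3 *Jun* genes held 94.0% and 96.0% in the adult libraries and 57.8% to 74.1% in the other 8. Summed CPM of the 7 other genes was 62.0 and 47.6 in adult, 594 and 492 at 1 day, 178 and 148 at 1 week, 256 and 254 at 3 weeks, and 165 and 135 *in vitro*.

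**Figure D1:**
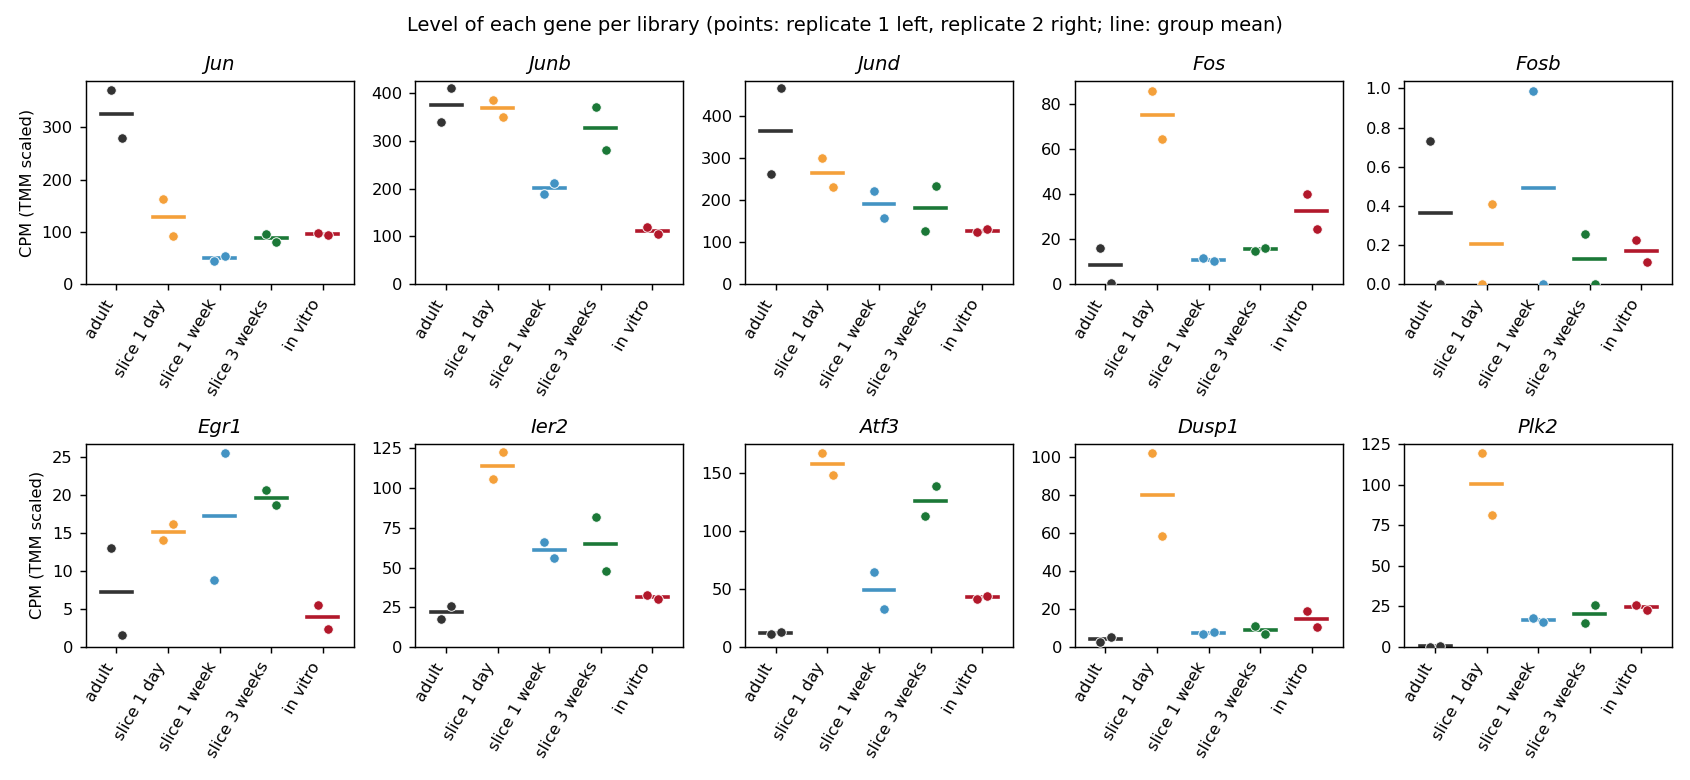
Level of the 10 genes in the 10 libraries, in CPM with TMM scaling on a linear axis from 0, with 1 panel per gene, groups on the horizontal axis, points for the 2 replicates and a line for the group mean. *Jun* lies between 280 and 372 CPM in adult and at 164 CPM or lower in all other libraries, while *Plk2* is under 1 CPM in adult and at 81.4 and 119 CPM at 1 day.

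The *Jun* genes encode the partners that Fos proteins need to bind DNA. *Jun* itself was at 372 and 280 CPM in adult, 164 and 93.1 at 1 day, 45.4 and 53.7 at 1 week, 96.3 and 80.9 at 3 weeks, and 98.9 and 94.5 *in vitro*. No library outside adult reached the lower adult value. *Jun* was called lower than adult in all 4 comparisons, with log2 fold changes of −1.35 ± 0.25 (SE; adjusted p = 0.00101) at 1 day, −2.75 ± 0.30 (adjusted p = 0.000115) at 1 week, −1.88 ± 0.25 (adjusted p = 0.000255) at 3 weeks and −1.76 ± 0.25 (adjusted p = 0.000163) *in vitro*, relative to all UMIs of a cell. Between 3 weeks and 1 day it was not called (−0.53 ± 0.24, adjusted p = 0.125), but was called lower at 3 weeks without slice 1 day replicate 2 (−0.88, adjusted p = 0.0274). Per cell and without scaling for depth, *Jun* was at 134 and 61.8 UMIs per 100 cells in adult, 121 and 89.2 at 1 day and 127 and 126 *in vitro*. On that scale its log2 difference from adult turned to 0.10 at 1 day and 0.37 *in vitro*, both not called, while it remained lower at 1 week (−1.59) and 3 weeks (−0.82). The median gene moved by 2.15 *in vitro*, 1.55 at 1 day, 1.19 at 1 week and 1.08 at 3 weeks (log2) between these scalings, as cultured cells gave more UMIs each, with medians of 5266 to 13966 per cell outside adult and 3257 and 1858 in adult.

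*Junb*, which competes with *Jun* for partners and is a weaker activator, was at 338 and 409 CPM in adult and 386 and 350 CPM at 1 day, where the groups overlapped. It was at 190 and 212 CPM at 1 week, 370 and 281 at 3 weeks and 119 and 105 *in vitro*. The values at 3 weeks overlapped adult, and those *in vitro* were below every other library. It was called lower than adult *in vitro* (log2 fold change −1.74 ± 0.18, adjusted p = 1.83e-05) and at 1 week (−0.90 ± 0.18, adjusted p = 0.00463, lost without slice 1 week replicate 1 and with cells thinned to equal UMIs), and lower *in vitro* than at 3 weeks (−1.54 ± 0.18, adjusted p = 0.000112). At 1 day its log2 difference from adult was −0.02 ± 0.17, and at 3 weeks −0.20 ± 0.17. The scaling per cell gave 0.47 *in vitro* and 0.33 at 1 week, neither called, and turned the values at 1 day (1.55) and 3 weeks (0.95) to calls above adult.

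*Jund*, the subunit best known for steady expression, was at 262 and 466 CPM in adult, 301 and 230 at 1 day, 221 and 158 at 1 week, 127 and 234 at 3 weeks, and 124 and 130 *in vitro*. The 1 day values overlapped those of adult, and the values of the other 3 groups were under both adult libraries. It was called lower *in vitro* (log2 fold change −1.52 ± 0.32, adjusted p = 0.00241) and at 3 weeks (−1.01 ± 0.32, adjusted p = 0.0288). At 1 week (−0.91 ± 0.34, adjusted p = 0.0637) and 1 day (−0.45 ± 0.32, adjusted p = 0.247) it was not called against adult, nor *in vitro* against 3 weeks (−0.51 ± 0.32, adjusted p = 0.232). With the study label as a term it was called lower in each of these: −1.28 at 1 week (adjusted p = 0.00184), −0.82 at 1 day (adjusted p = 0.00664) and −0.87 *in vitro* against 3 weeks (adjusted p = 0.00736). At 1 week 7 alternatives scaled for depth gave the call, among them leaving out adult replicate 1 (−1.23, adjusted p = 0.0293), either slice 3 weeks library (−0.93 and −0.92) or the neutrophil-rich cells (−0.98, adjusted p = 0.0445). The call at 3 weeks was lost without adult replicate 2 or slice 3 weeks replicate 1 (adjusted p up to 0.259), and per cell without depth scaling the value was 0.76 *in vitro*, a call above adult, and 0.16 at 3 weeks.

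*Fos* encodes the inducible partner of the Jun proteins. It was at 16.0 CPM in adult replicate 1, from 219 UMIs, and 0.772 CPM in adult replicate 2, from 6 UMIs. It was at 86.2 and 64.5 CPM at 1 day, 11.9 and 10.2 at 1 week from 12 and 4 UMIs, 14.9 and 16.2 at 3 weeks, and 40.2 and 24.7 *in vitro*. The 1 day libraries were above all others, the *in vitro* libraries came next, the 1 week libraries lay between the adult libraries, and those at 3 weeks lay on either side of the higher adult value. Erythrocyte markers also separated the adult libraries (1852 CPM in replicate 1 and 0 in replicate 2), and their part in the *Fos* values was not tested. *Fos* was called higher than adult at 1 day (log2 fold change 3.04 ± 0.69, adjusted p = 0.00376) and *in vitro* (1.84 ± 0.66, adjusted p = 0.0362), and lower at 3 weeks than at 1 day (−2.26 ± 0.66, adjusted p = 0.0262). Without adult replicate 1 the difference was 6.63 at 1 day, 5.47 *in vitro*, 3.90 at 1 week and 4.38 at 3 weeks. With 6 adult UMIs left, *Fos* there passed the filter on low counts through the culture groups. It had to differ from adult, so these values are a description. Without adult replicate 2 the difference was 2.22 at 1 day and 1.013 *in vitro*, while those at 1 week (−0.51) and 3 weeks (−0.04) turned below 0 and were not called. Between *in vitro* and 3 weeks the log2 difference was 1.05 ± 0.63 (adjusted p = 0.216), and it was called without adult replicate 1 (1.09, adjusted p = 0.00688) or replicate 2 (1.05, adjusted p = 0.00813). The *in vitro* call was lost without *in vitro* replicate 1, with library size alone and with DESeq2 (adjusted p up to 0.125). The call from 1 day to 3 weeks was lost with DESeq2 (adjusted p = 0.111) and when either 1 day library or slice 3 weeks replicate 2 was left out. Its log2 fold change stayed between −2.87 and −2.02 under all alternatives scaled for depth.

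*Fosb*, whose protein can take the place of Fos in the dimer, was near the limit of detection. It had 10 UMIs in adult replicate 1, 7 and 4 UMIs *in vitro*, 4 UMIs in slice 1 day replicate 2, 2 UMIs in slice 3 weeks replicate 1 and 1 UMI in slice 1 week replicate 1, and was not listed in the other 4 libraries. Its highest level was 0.988 CPM, and it did not pass the filter on low counts, so that 9 of the 10 genes were tested.

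*Egr1* encodes a zinc finger factor that serum response factor switches on beside *Fos*. It was at 13.03 and 1.54 CPM in adult, 14.1 and 16.2 at 1 day, 8.89 and 25.6 at 1 week from 9 and 10 UMIs, 20.7 and 18.7 at 3 weeks, and 5.49 and 2.41 *in vitro*. The adult values spanned the *in vitro* values, and both libraries at 1 day and at 3 weeks were above both adult libraries. It was not called against adult in any culture (adjusted p from 0.12 to 0.553). With the study label as a term it was called higher at 3 weeks (1.71, adjusted p = 0.0377), and without the filter on low counts at 1 day (1.008) and 3 weeks (1.41), with a call below adult *in vitro* (−0.81). Without adult replicate 1 it was called higher at 1 day (3.34), 1 week (3.25) and 3 weeks (3.71), while *in vitro* it was 1.44 (adjusted p = 0.109). Without adult replicate 2 it was called lower *in vitro* (−1.73), so that the sign of this difference turned with the adult library kept. It was lower *in vitro* than at 3 weeks (log2 fold change −2.32 ± 0.64, adjusted p = 0.0162). That call was lost without *in vitro* replicate 2 and with cells thinned to equal UMIs (adjusted p up to 0.141). Per cell without depth scaling, *Egr1* was called above adult *in vitro* (1.02), at 1 day (2.37), at 1 week (1.97) and at 3 weeks (2.28).

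*Ier2* encodes a nuclear protein that rises early after growth factors and stress. It was at 17.9 and 25.9 CPM in adult, 106 and 123 at 1 day, 66.2 and 56.2 at 1 week, 81.9 and 47.7 at 3 weeks, and 32.5 and 30.5 *in vitro*. Every culture library was above both adult libraries. *Ier2* rose at 1 day (log2 fold change 2.40 ± 0.26, adjusted p = 3.75e-05), 1 week (1.52 ± 0.31, adjusted p = 0.0042) and 3 weeks (1.57 ± 0.25, adjusted p = 0.000837), and its *in vitro* difference of 0.54 ± 0.25 was not called (adjusted p = 0.0894). It was called under 5 alternatives: without the filter on low counts (0.71), without adult replicate 2 (0.81, adjusted p = 0.0478), without cells with markers of other cell types (0.72) and without either slice 3 weeks library (0.66 each). The call at 1 week was lost without slice 1 week replicate 1 (adjusted p = 0.12). It was lower at 3 weeks than at 1 day (−0.83 ± 0.24, adjusted p = 0.0267), a call lost without either 1 day library or slice 3 weeks replicate 2, with cells thinned to equal UMIs and without cells with markers of other cell types (adjusted p up to 0.167), and lower *in vitro* than at 3 weeks (−1.03 ± 0.24, adjusted p = 0.00755), a call lost without either *in vitro* library or slice 3 weeks replicate 1 (adjusted p up to 0.0747).

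*Atf3* encodes a stress-induced factor that binds AP-1 and CRE sites and can repress its targets. It was at 11.4 and 13.4 CPM in adult, 168 and 148 at 1 day, 65.2 and 33.2 at 1 week, 113 and 139 at 3 weeks, and 41.7 and 43.9 *in vitro*. The 2 adult values were the lowest of the 10, and both libraries at 1 day and at 3 weeks were above every library of the other groups. The log2 fold change against adult was 3.68 ± 0.23 at 1 day (adjusted p = 1.63e-06), 2.11 ± 0.26 at 1 week (adjusted p = 0.00026), 3.35 ± 0.22 at 3 weeks (adjusted p = 4.59e-06) and 1.79 ± 0.21 *in vitro* (adjusted p = 5.5e-05). *Atf3* was not called between 3 weeks and 1 day (−0.32 ± 0.20, adjusted p = 0.242). It was lower *in vitro* than at 3 weeks (−1.56 ± 0.20, adjusted p = 0.000246), a call lost when cells with markers of other cell types were left out (adjusted p = 0.091).

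*Dusp1* encodes a phosphatase that switches off p38 and JNK, and is itself induced by them. It was at 2.56 and 5.53 CPM in adult, 102 and 58.4 at 1 day, 6.91 and 7.67 at 1 week from 7 and 3 UMIs, 10.99 and 6.84 at 3 weeks, and 19.2 and 10.5 *in vitro*. The 1 day libraries stood apart from all others. *Dusp1* rose at 1 day (log2 fold change 4.37 ± 0.45, adjusted p = 2.88e-05) and *in vitro* (1.95 ± 0.43, adjusted p = 0.00315), and fell from 1 day to 3 weeks (−3.20 ± 0.41, adjusted p = 0.000549). At 1 week (0.89 ± 0.88) and 3 weeks (1.17 ± 0.46, adjusted p = 0.0657) it was not called against adult, and the value at 3 weeks was called under 6 alternatives, among them without adult replicate 2 (1.75), without either *in vitro* library (1.21 each), without slice 1 day replicate 2 (1.23) and with the replicate number as a block (1.16, adjusted p = 0.0486), but not with the study label as a term (adjusted p = 0.0792).

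*Plk2* encodes a stress-responsive Polo-like kinase. It had 4 UMIs in each adult library (0.293 and 0.515 CPM). It was at 119 and 81.4 CPM at 1 day, 17.8 and 15.3 at 1 week from 18 and 6 UMIs, 14.6 and 25.8 at 3 weeks, and 25.9 and 22.9 *in vitro*. Every culture library was above adult and the 1 day libraries were above every other. Its log2 fold changes against adult were 8.02 ± 0.42 at 1 day, 5.47 ± 0.65 at 1 week, 5.74 ± 0.44 at 3 weeks and 5.98 ± 0.43 *in vitro*, each called. *Plk2* passed the filter on low counts through the culture groups, so that it had to differ from adult, and these values are a description. *Plk2* fell from 1 day to 3 weeks (−2.27 ± 0.26, adjusted p = 0.000333) and was not called between *in vitro* and 3 weeks (0.24 ± 0.25). The call at 1 week was lost when cells with markers of other cell types were left out (adjusted p = 0.0501), where the log2 fold change was 5.10 ± 1.66. Leaving them out removed 129 of 148 and 8 of 61 cells there.

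**Figure D2:**
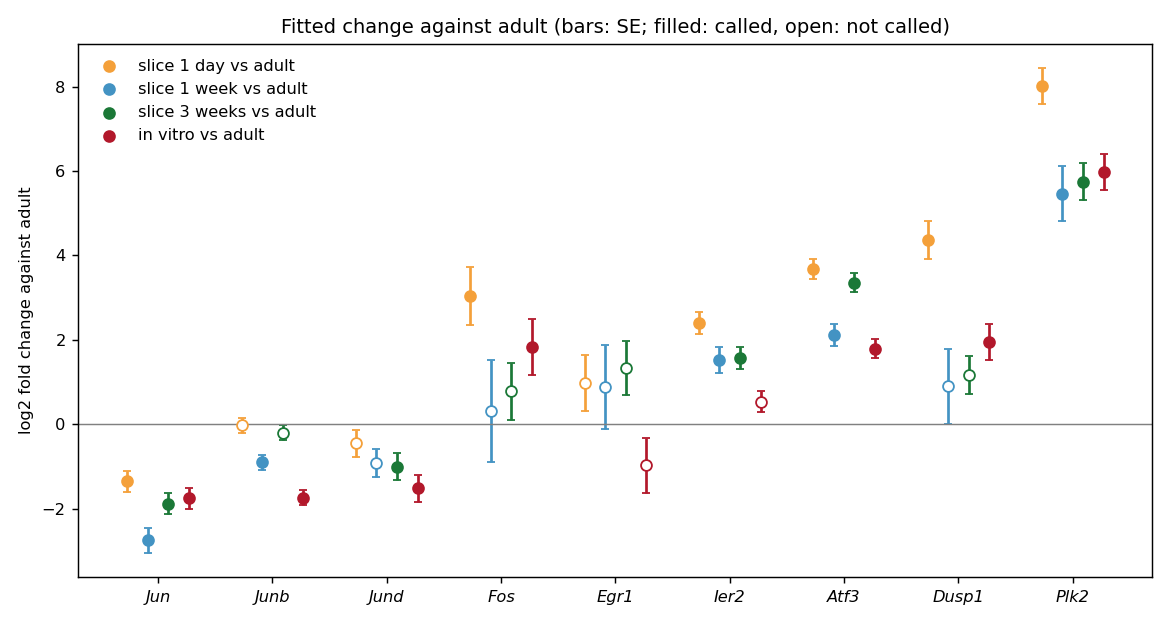
Log2 fold change against adult (vertical axis) of the 9 tested genes in the 3 slice groups and *in vitro*, from the edgeR fit of CPM-scaled counts, with bars for the SE, filled points for called and open points for not called. *Jun* is under 0 in all 4 comparisons, and *Plk2* and *Atf3* are above 0 in all 4, with *Plk2* at 8.02 at 1 day.

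A gene was called at an adjusted p under 0.05 and a fold change over 1.5. At 1 day 5 of the 9 tested genes were higher than adult (*Fos*, *Ier2*, *Atf3*, *Dusp1*, *Plk2*) and 1 was lower (*Jun*), beside 24.9% higher and 25.3% lower among the 12157 genes tested. At 1 week 3 were higher (*Ier2*, *Atf3*, *Plk2*) and 2 lower (*Jun*, *Junb*), beside 15% (1822) and 13.6% (1649) of all genes. At 3 weeks *Ier2*, *Atf3* and *Plk2* were higher and *Jun* and *Jund* were lower, beside 17.9% and 17.5%. *In vitro* 4 were higher (*Fos*, *Atf3*, *Dusp1*, *Plk2*) and 3 lower (*Jun*, *Junb*, *Jund*), beside 22.4% and 28.5%. These 4 comparisons share the adult libraries. From 1 day to 3 weeks 4 were lower (*Fos*, *Ier2*, *Dusp1*, *Plk2*) and 0 higher, beside 12.8% and 13.9% of all genes, and *in vitro* against 3 weeks 4 were lower (*Junb*, *Egr1*, *Ier2*, *Atf3*) and 0 higher, beside 19.9% and 13.3%. In these last comparisons 0 members were higher with DESeq2 and 0 at an unadjusted edgeR p under 0.05. Calls above 3 weeks did arise *in vitro* under alternatives: *Fos* without either adult library, *Plk2* without slice 3 weeks replicate 2, *Fos* and *Dusp1* without the filter on low counts, and *Dusp1* and *Plk2* without cells with markers of other cell types. The counts above adult hold *Plk2*, which had to differ.

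The 2 adult libraries came under different study labels, and each label also held 1 of the slice 3 weeks libraries. Within the label of the first replicates, *Fos* was 0.10 lower at 3 weeks than in adult on the log2(CPM + 1) scale (log2 difference −0.10), and within that of the second replicates it was 3.28 higher. *Egr1* was higher at 3 weeks within both (0.63 and 2.95), *Atf3* by 3.20 and 3.28, *Plk2* by 3.59 and 4.15, *Ier2* by 2.13 and 0.86 and *Dusp1* by 1.75 and 0.26. *Jun* was lower within both (−1.94 and −1.78), as was *Jund* (−1.04 and −0.99). *Junb* was 0.13 higher within the first and lower within the second (−0.54). A test of the difference between the labels, in which each lone library is assumed to vary like the other groups, gave an adjusted p of 0.0736 for *Fos*, 0.0898 for *Ier2* and 0.208 for *Egr1*. The other 3 groups each held 2 libraries of 1 label, that of the second adult replicate, so that their values without adult replicate 1 are the values within a label. Without adult replicate 1, *Fos*, with 6 adult UMIs left, and *Plk2*, with 4, passed the filter on low counts through the culture groups. Both had to differ from adult, and their values are a description. At 1 day the log2 fold changes were 3.60 for *Atf3*, 3.88 for *Dusp1*, 3.34 for *Egr1* and 2.19 for *Ier2*. They were −1.09 for *Jun*, −0.11 for *Junb* and −0.77 for *Jund*. In the same order the 1 week values were 2.03, 0.41, 3.25, 1.31, −2.49, −0.99 and −1.23. The *in vitro* values were 1.77, 1.52, 1.44, 0.38, −1.44, −1.77 and −1.78.

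Shares of cells with a UMI were compared after each cell was thinned to 1000 UMIs. This left out 273 of 19059 cells. *Jun* was detected in 28.9% and 25.8% of adult cells, 12.5% and 8.88% at 1 day, and 7.03% to 8.27% at 3 weeks and *in vitro*. *Fos* was detected in 1.55% (95% exact binomial interval 1.18 to 2.00%) and 0.0903% (0.0186 to 0.264%) of adult cells and in 4.25% (2.68 to 6.36%) and 4.44% (3.26 to 5.89%) at 1 day. *Plk2* was detected in 1 of 3733 and 1 of 3322 adult cells, 5.79% and 5.52% at 1 day, 1.39% and 2.11% at 3 weeks, and 2.03% and 1.53% *in vitro*. *Atf3* was detected in 1.23% and 1.35% of adult cells, 12.2% and 13.02% at 1 day, 10.3% and 10.8% at 3 weeks, and 3.06% and 3.47% *in vitro*. *Fos* was in 0 of 148 and 0 of 59 thinned cells at 1 week, which allows up to 2.46% and 6.06% of cells with a UMI at this depth alone. With thinning to 1800 UMIs it was in 4 of 139 (2.88%) and 0 of 52 cells there, and without thinning in 7 of 148 (4.73%) and 1 of 61 (1.64%). Before thinning, the shares moved with the depth of the cells, and the intervals cover counting error only.

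At this equal depth, most cells carried a UMI of none or 1 of the 10 genes. None was read in 39.4% and 29.0% of adult cells, 41.5% and 41.6% at 1 day, 50% and 55.9% at 1 week, 50.9% and 51.9% at 3 weeks, and 66.9% and 68.8% *in vitro*. Cells with 3 or 4 of the genes were 4.39% and 4.94% in adult, 9.85% and 7.69% at 1 day, 3.56% and 3.29% at 3 weeks, and 1.49% and 0.82% *in vitro*. Cells with 5 or more were 11 of 518 (2.12%, interval 1.06 to 3.77%) and 7 of 1014 (0.69%, 0.278 to 1.42%) at 1 day. They were 1 of 1153 and 8 of 3740 at 3 weeks, 2 of 2417 and 4 of 2682 *in vitro*, 1 of 3733 and 0 of 3322 in adult and 0 of 148 and 0 of 59 at 1 week. The top 5% of cells held 39.2% and 29.6% of the UMIs of the 10 genes at 1 day, 35.0% and 35.3% *in vitro*, 28.03% and 27.2% at 3 weeks, and 23.1% and 17.3% in adult. Without thinning, cells with 5 or more were 8.93% and 7.30% at 3 weeks and 23.6% and 34.0% at 1 day.

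**Figure D3:**
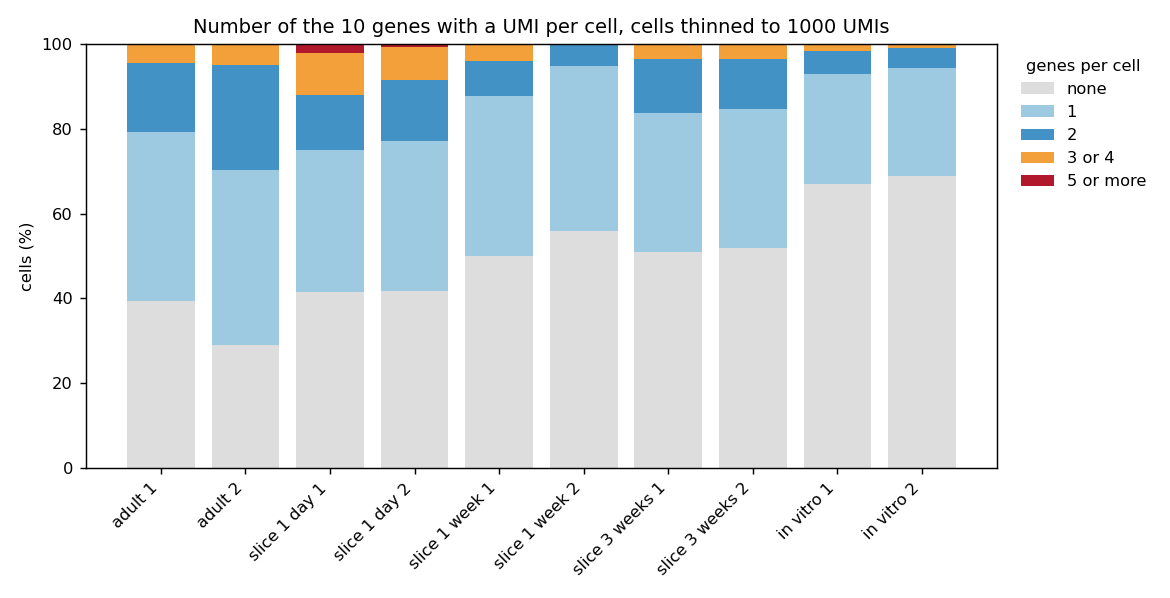
Share of cells (vertical axis, percent) with a UMI of none, 1, 2, 3 or 4, and 5 or more of the 10 genes in each of the 10 libraries, after thinning of each cell to 1000 UMIs. Cells with none are 66.9% and 68.8% *in vitro*, and cells with 5 or more are 2.12% and 0.69% at 1 day.

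Of the thinned cells with a *Plk2* UMI at 1 day, 15 of 30 (50%) and 19 of 56 (33.9%) also had an *Atf3* UMI, beside 9.84% and 11.8% of the cells without *Plk2*. *Dusp1* was read in 13 of 30 (43.3%) and 6 of 56 (10.7%) of them, beside 5.12% and 4.802%. *Junb* was read in 16 of 30 (53.3%) and 22 of 56 (39.3%), beside 26.4% and 24.9%, and *Jund* in 17 of 30 (56.7%) and 20 of 56 (35.7%), beside 19.9% and 17.3%. *Ier2* differed less, in 4 of 30 (13.3%) and 6 of 56 (10.7%), beside 9.43% and 10.1%. The 1 day cells without *Plk2* include all neutrophil-rich cells, which are described below. Of those, 22.1% and 19.1% had an *Ier2* UMI and 1.47% and 5.46% an *Atf3* UMI, and these shares were not separated here. At 3 weeks *Atf3* was read in 6 of 16 (37.5%) and 31 of 79 (39.2%) of the cells with *Plk2*, beside 9.94% and 10.2%. There *Ier2* was read in 0 of 16 and 1 of 79 (1.27%) of the *Plk2* cells, beside 8.44% and 4.43%, counts too small to compare. *Jund* was read in 0 of 16 and 27 of 79 (34.2%) of them, beside 10.5% and 18.6%. *In vitro Atf3* was read in 9 of 49 (18.4%) and 5 of 41 (12.2%), beside 2.74% and 3.33%. *Egr1* was read in 1 of 30 (3.33%) and 2 of 56 (3.57%) of the *Plk2* cells at 1 day, beside 1.43% and 1.88%, counts too small to compare. Cells with a *Fos* UMI at 1 day had *Jun* in 7 of 22 (31.8%) and 9 of 45 (20%), beside 11.7% and 8.36% of the cells without *Fos*. In adult replicate 1 they had *Jun* in 30 of 58 (51.7%), beside 28.5%, and adult replicate 2 had 3 cells with a *Fos* UMI, 0 of them with *Jun*. Cells are not replicates and droplets with 2 cells were not removed, so these shares are a description.

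**Figure D4:**
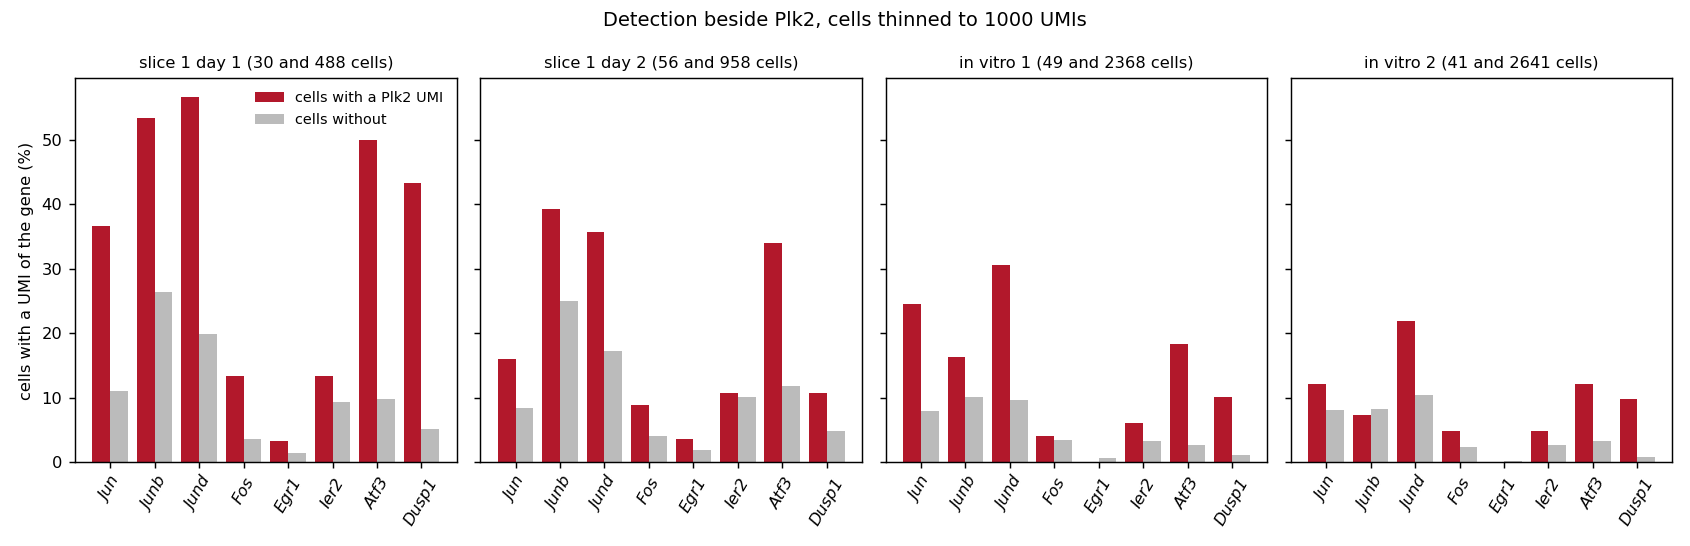
Share of thinned cells (vertical axis, percent) with a UMI of 8 genes among cells with a *Plk2* UMI (red) and without (grey), in the 2 slice 1 day and the 2 *in vitro* libraries. *Atf3* is at 50% and 33.9% in *Plk2* cells at 1 day, beside 9.84% and 11.8% in the rest.

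Neutrophil and monocyte markers moved with the slice 1 day and slice 1 week groups, apart from slice 1 week replicate 2 for monocytes. At least 3 of the 6 monocyte markers were read in 1.93% and 6.31% of cells at 1 day, 8.78% and 0% at 1 week and 0% elsewhere. Without every cell that held at least 3 markers of any other cell type, these cells included, *Fos*, *Ier2*, *Atf3*, *Dusp1* and *Plk2* were called higher and *Jun* lower at 1 day. That left out 234 of 518 and 894 of 1014 cells at 1 day, so these calls rest on a small part of replicate 2. Cells with more than 2% of their UMIs from 6 neutrophil genes, such as *S100a8* and *S100a9*, were 68 of 518 and 110 of 1014 at 1 day, 24 of 148 and 1 of 61 at 1 week, and 0 in the other 6 libraries. The threshold was set after the values were seen. At 1 day these cells held 17.5 and 12.1 CPM of *Fos*, 23.3 and 34.9 CPM of *Atf3*, and 5.83 and 12.1 CPM of *Plk2*. The other cells of the same libraries held 93.4 and 70.3 CPM of *Fos*, 182 and 161 CPM of *Atf3*, and 130 and 88.9 CPM of *Plk2*. After thinning, a *Plk2* UMI was read in 0 of 68 and 0 of 110 neutrophil-rich cells and in 6.67% and 6.19% of the others, with median depths before thinning of 2224 and 4925 UMIs against 6986 and 8868. *Ier2* went the other way, at 227 and 215 CPM in neutrophil-rich cells and 104 and 117 CPM in the others. *Jun* was at 489 CPM in the neutrophil-rich cells of replicate 1 and 56.4 CPM in those of replicate 2, beside 155 and 98.0 CPM. Without the neutrophil-rich cells, the 5 genes *Fos*, *Ier2*, *Atf3*, *Dusp1* and *Plk2* were called higher and *Jun* lower at 1 day, with log2 fold changes of 3.10 for *Fos*, 2.30 for *Ier2*, 3.74 for *Atf3*, 4.38 for *Dusp1*, 8.09 for *Plk2* and −1.43 for *Jun*.

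**Figure D5:**
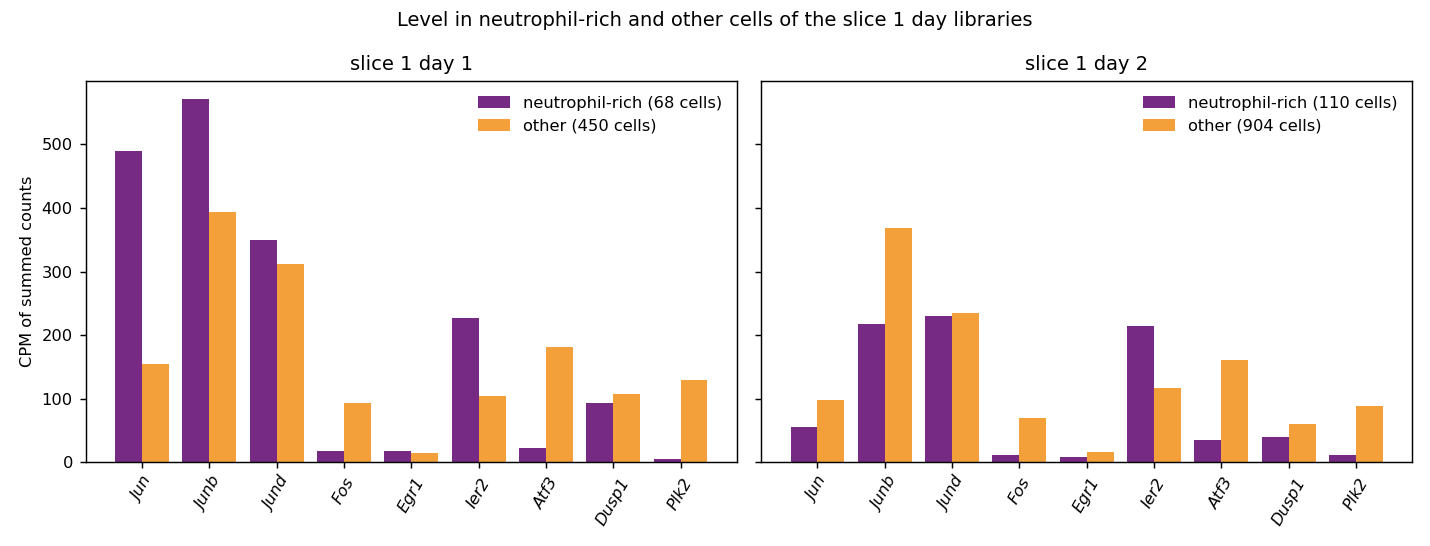
Level of 9 genes (vertical axis, CPM of summed counts from 0) in neutrophil-rich and other cells of the 2 slice 1 day libraries. *Plk2*, *Fos* and *Atf3* are lower in neutrophil-rich cells of both libraries, *Ier2* is higher in both, and *Jun* is higher in replicate 1 and lower in replicate 2.

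The other genes of the pathway were read from lists of named genes, which were also chosen with earlier results of these data known. Of 17 other AP-1 family genes, all tested, 7 rose and 3 fell at 1 day against adult, beside 24.9% and 25.3% of all genes. *In vitro* 3 rose and 2 fell, shares under the 22.4% and 28.5% of all genes. *Maf*, a large Maf protein of macrophages, fell at 1 day from 309 and 292 CPM to 87.5 and 65.5 CPM (log2 fold change −1.98 ± 0.17, adjusted p = 9.53e-06), and *Batf3*, a dimer partner of Jun proteins, fell *in vitro* from 46.2 and 34.6 CPM to 9.24 and 9.67 CPM. *Atf4*, the factor of the integrated stress response, rose at 1 day from 71.1 and 43.5 CPM to 177 and 142 CPM (1.46 ± 0.28, adjusted p = 0.00128).

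Of 36 other immediate early genes, 31 were tested, of which 18 rose and 5 fell at 1 day, 11 rose and 4 fell at 1 week, 13 rose and 5 fell at 3 weeks, and 8 rose and 12 fell *in vitro*. The shares of all genes that rose and fell were 24.9% and 25.3%, 15% and 13.6%, 17.9% and 17.5%, and 22.4% and 28.5%. The median log2 fold change of the list was 1.18 at 1 day, beside −0.06 over all tested genes, and 0.17 *in vitro*, beside −0.11. These counts include the neutrophil-rich cells, 13.1% and 10.9% of the cells at 1 day. Without those cells 18 rose and 5 fell at 1 day with a median of 1.09, and 10 rose and 4 fell at 1 week. Without every cell that held at least 3 markers of another cell type, 30 of the list were tested, 15 rose and 5 fell at 1 day with a median of 0.92, and 4 rose and 4 fell at 1 week. *Ier3*, a survival gene, rose at 1 day from 4.24 and 6.82 CPM in adult to 125 and 128 CPM (log2 fold change 4.56 ± 0.31). *Id2*, an inhibitor of helix-loop-helix factors, rose from 28.7 and 25.7 CPM to 642 and 540 CPM (4.44 ± 0.31). The antiproliferative gene *Btg2* fell from 354 and 236 CPM to 58.7 and 49.9 CPM (−2.45 ± 0.28), and was lower than adult in every culture group. *Sgk1*, a kinase downstream of PI3K, fell *in vitro* from 326 and 348 CPM to 54.5 and 42.4 CPM, and was higher at 3 weeks (474 and 463 CPM) than at 1 day (133 and 114 CPM).

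Of 13 SRF, TCF and CREB regulators, 4 rose and 3 fell at 1 day, near the 24.9% and 25.3% of all genes, and 1 rose and 1 fell at 1 week, under 15% and 13.6%. Without the neutrophil-rich cells 4 rose and 4 fell at 1 day and 1 rose and 0 fell at 1 week. *Nab2*, a corepressor of Egr1, rose at 1 day from 25.9 and 20.5 CPM to 61.0 and 61.2 CPM (log2 fold change 1.39 ± 0.17). Of 20 MAP kinases, 4 rose and 7 fell at 1 day, beside the same shares of all genes. *Mapkapk2*, a p38 substrate kinase, rose from 21.4 and 16.5 CPM to 59.4 and 61.8 CPM (1.67 ± 0.17), and *Rps6ka1*, an ERK substrate kinase, fell from 159 and 156 CPM to 64.9 and 66.3 CPM (−1.27 ± 0.19). Of 13 other dual-specificity phosphatases and Sprouty genes, 12 were tested, and 5 rose and 3 fell at 1 day, again beside 24.9% and 25.3%. *Dusp6*, a feedback phosphatase of ERK, fell there from 212 and 329 CPM to 137 and 117 CPM (−1.10 ± 0.23), while *Dusp1* rose. Of 12 heat shock genes, 8 rose and 1 fell at 1 day, 8 rose and 1 fell *in vitro*, and 6 rose and 1 fell at 3 weeks. The shares of all genes were 24.9% and 25.3%, 22.4% and 28.5%, and 17.9% and 17.5%. Not all of the list was low in adult: *Hspa8* was at 867 and 591 CPM and *Hsp90ab1* at 330 and 195 CPM there. *Hsp90aa1* rose at 1 day from 121 and 85.8 CPM to 451 and 450 CPM (2.13 ± 0.19) and was lower at 3 weeks (188 and 223 CPM). Without the neutrophil-rich cells the 1 day counts of the other AP-1 family genes, the MAP kinases, the phosphatases and the heat shock genes were as given. Without every cell with at least 3 markers of another cell type, 6 of 15 AP-1 family genes rose and 3 fell, 2 of 20 MAP kinases rose and 4 fell, 4 of 11 phosphatases rose and 3 fell, and 6 of 11 heat shock genes rose and 1 fell at 1 day.

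For each of the 9 tested genes, the non-member genes with the most similar profile over the 10 libraries were found among 2723 genes by Pearson r of log2(CPM + 1). *Atf3* was most like *Cdkn1a*, an inhibitor of the cell cycle (r = 0.989), *Adssl1* and *Mmp12*. *Plk2* was most like *Psmb6* (r = 0.986), *Bola2* and *Hmox1*, a heme oxygenase (r = 0.980). *Ier2* was most like *Eno1* (r = 0.983), *Pcna* and *Srgn*, and *Dusp1* most like *Cycs* (r = 0.952), *Psmc6* and *Zwint*. *Fos* was most like *Ndufs4* (r = 0.924), *Psme1* and *Mcl1*, and *Egr1* most like *Slc11a1* (r = 0.899), *Erp29* and *Clptm1l*. *Jun* was most like *Sbds* (r = 0.944), *Sec11a* and *BC017643*, *Junb* most like *Stt3a* (r = 0.979), *Srsf10* and *Mfsd10*, and *Jund* most like *Basp1* (r = 0.898), *Cept1* and *Tbpl1*. These values describe 10 libraries that fall into 5 groups and share depth within a group.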

How the data were processed

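Microglia were profiled with the 10x Genomics 3′ kit v2, and the processing notes of the submitters name Cell Ranger 1.3.0 and mm10. The authors deposited raw counts of UMIs, in 1 table of genes and cell barcodes per library, and a gene missing from a table was taken as 0. Barcodes were kept at up to 5% mitochondrial UMIs, at least 400 genes and up to 30000 UMIs (19059 of 19637). No doublets were removed.

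Cells are not replicates, so UMIs were added up per library. One model of the 5 groups was fitted to these sums across all genes by the quasi-likelihood test of edgeR 4.0.16 in R 4.3.3, with TMM factors and its filter on low counts (minimum 10), which left 12157 genes. P-values were adjusted over all of them by Benjamini and Hochberg. The SE is the size of the log2 fold change divided by the square root of F. The design text calls the libraries biological replicates, and p-values measure the spread between 2 libraries per group. Alternatives were DESeq2 1.42.0, other scalings and filters of genes and cells, cells thinned to equal UMIs, the study label or the replicate number as a term, and each library left out in turn. The fit was tested on simulated data. Shares of cells have 95% exact binomial intervals.

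The members and gene lists were chosen with earlier results of these data known. Named are all members, from each list in each comparison described at most the 2 called genes with the largest rise and the 2 with the largest fall among those with a mean of at least 20 CPM, and for each member the 3 other genes with the most similar profile among those with a mean of at least 50 CPM.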

Additional observations from a re-analysis of the deposited data

Results flagged for a closer look

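The slice 3 weeks minus adult difference of *Fos* had opposite signs within the 2 study labels, at −0.10 within the label of the first replicates and 3.28 within that of the second replicates (log2 of CPM + 1). That of *Junb* was 0.13 and −0.54. Each value compares 1 library with 1 library. In a model with a term for the difference between the labels, the adjusted p was 0.0736 for *Fos* and 0.296 for *Junb*, so neither passed 0.05, and 3 of 12157 genes did (edgeR).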

How the results depend on the processing

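Of the 31 calls of members over the 6 comparisons, 21 held under each of up to 21 alternatives scaled for depth, and 10 were lost under at least 1 of them. The calls that held include those of *Plk2* against adult at 1 day, at 3 weeks and *in vitro*, which had to differ, so their stability is no support. Leaving out 1 library at a time gave ranges of 3 to 5 members higher and 3 to 4 lower *in vitro* against adult, 5 to 6 and 1 to 1 at 1 day, 2 to 5 and 1 to 3 at 1 week, and 3 to 5 and 1 to 2 at 3 weeks. It gave 0 to 0 and 2 to 4 for 3 weeks against 1 day, and 0 to 1 and 2 to 4 for *in vitro* against 3 weeks. Where this leaves a group with 1 library, that library is assumed to vary like the other groups. Without adult replicate 1, *Fos* passed the filter on low counts through the culture groups, so that it had to differ from adult. At 1 week and 3 weeks the upper value of 5 was reached without adult replicate 1, when *Fos* and *Egr1* were called, and at 1 week the lower values of 2 and 1 without slice 1 week replicate 1, which held 148 cells beside 61 in the other library.

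Scaling by the number of cells and not by depth, chosen after seeing the data, gave 7 members higher and 0 lower *in vitro* (beside 80.3% and 4.70% of all genes), 8 and 0 for the 1 day slices (67.9% and 3.49%), 6 and 1 for the 1 week slices (44.0% and 1.35%), 7 and 1 for the 3 weeks slices (55.9% and 2.76%), and 4 and 1 for *in vitro* against 3 weeks (52.7% and 5.54%). Among differences called on either scale, signs turned *in vitro* for *Jun* (0.37), *Junb* (0.47), *Jund* (0.76) and *Egr1* (1.02), at 1 day for *Jun* (0.10), *Junb* (1.55) and *Jund* (1.17), at 1 week for *Junb* (0.33), at 3 weeks for *Junb* (0.95) and *Jund* (0.16), and for *Ier2 in vitro* against 3 weeks (0.0074). They also turned, with no call on either scale, for *Jund* at 1 week (0.38) and *in vitro* against 3 weeks (0.60) and for *Egr1* at 3 weeks against 1 day (−0.09). This follows from its construction, since the cells differ in UMIs, and it moved the median of all genes by 1.08 to 2.15 against adult. With library size alone the median moved by −0.30 *in vitro*, −0.22 at 1 week and −0.20 at 3 weeks, with 2017 genes higher and 4717 lower *in vitro*, 1513 and 2513 at 1 week, and 1706 and 3058 at 3 weeks. DESeq2 gave 2191 higher and 1250 lower at 1 week.

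Without a filter on low counts 2 members were higher *in vitro* than at 3 weeks and 6 were higher at 3 weeks than in adult. Leaving out cells with at least 3 markers of another cell type removed 45.2% and 88.2% of the 1 day cells, 87.2% and 13.1% of the 1 week cells, 87.6% and 87.99% of the *in vitro* cells and at most 2.08% in the other libraries, and 2 members were then higher *in vitro* than at 3 weeks. With the study label as a term 2 were lower at 1 day, 3 at 1 week and 5 *in vitro* against 3 weeks, *Jund* being added in each, and 4 were higher at 3 weeks than in adult, *Egr1* being added. With cells thinned to 1000 UMIs 1 was lower at 1 week, where 799 genes in all were higher and 580 lower. The cause of these changes was not tested. Leaving out the neutrophil-rich cells or both slice 1 week libraries, also chosen after seeing the data, kept each member count within 1.5 times.

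With the replicate number as a block, 4 members were higher at 3 weeks than in adult, *Dusp1* being added, and the other counts of members did not move. Correlations of the deviations of same-numbered libraries ran from −0.191 to 0.262 over 5273 genes. For adult and slice 3 weeks the number coincides with the study label (r = 0.0849), so that there the block and the label cannot be told apart. For the other groups the libraries share only a number.

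Thinning to 1800 UMIs in place of 1000 lowered the mean share of cells with none of the genes to 16.3% in adult, 23.5% at 1 day, 38.1% at 1 week, 34.6% at 3 weeks and 53.4% *in vitro*. It raised that of cells with at least 5 to 0.162% in adult, 0.439% *in vitro*, 3.57% for the 1 day slices and 1.05% for the 3 weeks slices. The top 5% of cells then held 31.8% of the UMIs *in vitro*, 22.1% at 1 week and 25.6% at 3 weeks. The 1 week libraries, with 61 and 148 cells, limit every value of that group.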
